A study of Mus musculus with 48 samples.

Results

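Murine oncostatin M (mOSM) was compared with human oncostatin M (hOSM) and leukemia inhibitory factor (mLIF) in wild-type mouse osteoblast cultures 1 h after the ligands were added. The 9 arrays were chosen by title: 3 wild-type arrays given mOSM for 1 h against the 6 given hOSM (3) or mLIF (3), matched by replicate number, out of 48 arrays in the series. hOSM and mLIF are called LIFR ligands below, because the study's design text states that in mouse cells both act through the leukemia inhibitory factor receptor (LIFR) alone, whereas mOSM can act through the oncostatin M receptor (OSMR) and LIFR. The comparison therefore asks what mOSM changed in gene expression beyond what LIFR ligands changed.

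The cells were primary calvarial osteoblasts on a C57BL/6 background, frozen, thawed and differentiated for 17 days in a medium with ascorbate, and every ligand was used at 10 ng/ml. The groups used here are wild type (Osmr WT, WT) and Osmr-null (Osmr KO, KO) cultures, left without ligand (control) or given mOSM, hOSM or mLIF for 1 h, and wild-type cultures with the same treatments for 6 h, with 3 arrays in each group. The labels call the LIF mouse in the titles and human in the treatment protocol. Arrays that carry the same replicate number and genotype are treated as 1 culture. The labels do not say whether cultures came from separate animals, so the p-values rest on variation among these cultures, which may be technical.

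Oncostatin M and LIF belong to the interleukin 6 family of cytokines, which share the receptor chain gp130 (Il6st). A ligand joins gp130 to LIFR or OSMR, which activates JAK kinases, STAT3 and the ERK pathway within minutes. In bone these cytokines act on osteoblasts and osteocytes, where they are known for effects on bone formation and on the support of osteoclasts. The first genes to respond include transcription factors of the AP-1, EGR and KLF families, SOCS feedback inhibitors and chemokines.

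Values are log2 expression of the deposited normalized table, so a difference of 1 is a 2-fold change. Each gene's difference comes from a linear model (limma) over all 48 arrays with a term for culture, and a gene passed where its p-value, adjusted over 10739 genes by the Benjamini-Hochberg method, was under 0.05. The 9 arrays had median bead signals of 124.8 to 156.2 and 14746 to 16307 probes above background. They correlated at 0.9475 or higher with each other, and no 2 held identical values.

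Osmr itself, the gene knocked out in the KO cultures, was 9.95-fold lower in KO than in WT arrays. The log2 difference was -3.31 ± 0.26 SE (limma with culture as a random effect, adjusted p = 4.85e-11, 24 arrays each). These arrays came from 3 cultures per genotype, and an exact permutation test over the culture means gave p = 0.1, the smallest it allows. Its level ran from 9.51 to 11.13 in WT arrays at 1 h and from 6.28 to 8.27 in KO arrays at 1 h, so the genotypes did not overlap. The Osmr probe was still above background on all 48 arrays, those of the KO cultures included. Of 17 osteoblast genes listed, 10 were tested and 8 were above background on all 9 arrays, among them Col1a1, the main chain of bone collagen. Dlx5, Msx2, Phospho1 and Tnn were not detected in enough arrays, and 3 had no named probe. The labels name the cell type osteocyte. The osteocyte genes Sost and Fgf23 were not detected in enough arrays to be tested, and Dmp1 was above background on 0 of the 9 arrays. Mepe was above background on 1 of 3 mOSM arrays and 2 of 6 LIFR ligand arrays, and 5 of the 7 osteocyte genes tested were so on all 9. Among 12 markers of macrophages and osteoclasts, 7 were tested, and 4 of these (Lyz2, Cd14, Ctsk and Csf1r) were above background on all 9 arrays. Itgam, Ptprc, Acp5 and Ocstamp were not detected in enough arrays, and Cd68 had no named probe. The summed signal of the 7 tested ran from 8996 to 34070 in the mOSM arrays and from 8668 to 30890 in the LIFR ligand arrays. Of the markers tested for other cell types, 5 of 7 for adipocytes, 4 of 6 for chondrocytes, 2 of 2 for muscle and 1 of 2 for endothelium were above background on all 9 arrays. The 8 arrays of the KO culture numbered 3 stood apart from the others on the first principal component (29.6% of the variance, mean score 60.7 against -17.7 to -0.13 for the other cultures), so results on KO cultures are given with and without it.

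At 1 h the expression profile of mOSM differed little from that of the LIFR ligands. Only 5 of 10739 genes passed (0.0466%), with 4 higher and 1 lower after mOSM: Klf2, Nfkbiz, Ppp1r15a and Trib1 were higher and Wfdc18 was lower. At an unadjusted p under 0.05 there were 432 genes (4.02%). The difference exceeded 1 in either direction for 9 genes (0.0838%), and the 95% interval lay within -1 and 1 for 10553 genes (98.3%). The median difference over all genes was 0.01 with a median SE of 0.16, which sets the half-width of a typical 95% interval at 0.32. Simulated data were built on this comparison with 200 genes changed, normal noise and no beadchip effect. There 90% of genes changed by 1 were recovered, against 30% of genes changed by 0.5. The simulation gave 168 calls, and the adjusted threshold is stricter where fewer genes are called, as here with 5. The 90% can therefore be too high for the real data, where 3 of the 9 genes with a difference over 1 passed. Changes of 0.5 or less were mostly not detectable with 3 cultures.

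**Figure D1:**
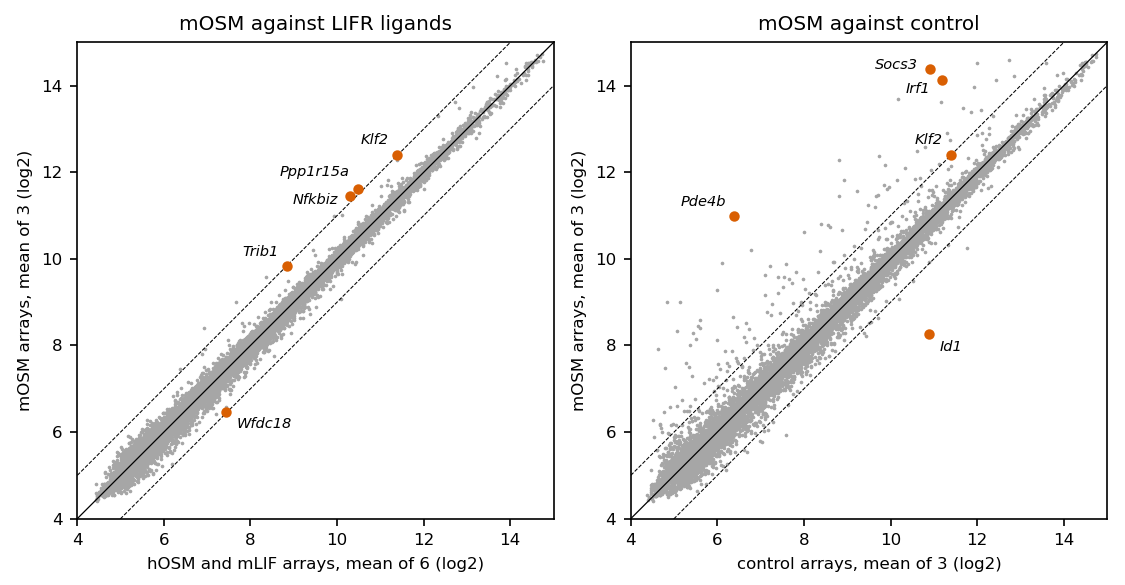
Mean log2 expression of all 10739 genes in WT cultures at 1 h: the 3 mOSM arrays (vertical axis) against the 6 hOSM and mLIF arrays (left panel) and against the 3 control arrays (right panel), with dashed lines at differences of -1 and 1. The 5 genes that passed against the LIFR ligands lie near the dashed lines in the left panel, and Socs3, Irf1, Pde4b and Id1 lie far outside them in the right panel.

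The ligands themselves were active in these cultures. Against control, mOSM changed 176 genes (1.64%), of which 151 rose and 25 fell, and the LIFR ligands changed 216 genes (2.01%), of which 175 rose and 41 fell. These comparisons share the 3 control arrays. No mOSM or mLIF array here shared a beadchip with a control array, whereas the hOSM arrays did. With beadchip terms the counts against control were 99 for mOSM and 220 for LIFR ligands. Taken separately, mOSM differed from hOSM in 6 genes (0.0559%), all higher after mOSM, namely Klf2, Nfkbiz, Ppp1r15a, Trib1, the antiproliferative gene Btg2 and the heat shock co-chaperone Dnajb1, the last 2 named after their values were seen. Against mLIF it differed in 1 gene (0.00931%), Klf2. Both comparisons use the same 3 mOSM arrays. Between hOSM and mLIF 0 genes passed (0%) with limma, where 744 (6.93%) had an unadjusted p under 0.05 and the smallest adjusted p was 0.43. The model without the culture term also called 0, with 272 genes at an unadjusted p under 0.05. With the culture term, mOSM against hOSM had 838 such genes (7.8%) and mOSM against mLIF 276 (2.57%). Differences over 1 numbered 24 between hOSM and mLIF, 29 for mOSM against hOSM and 1 for mOSM against mLIF. None of these hOSM arrays shared a beadchip with the mOSM or mLIF arrays. With beadchip terms the unadjusted counts were 368, 439 and 444 in the same order.

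Klf2, a zinc finger transcription factor of the KLF family, was the gene with the firmest difference. The 3 mOSM arrays read 12.52, 12.51 and 12.21 for replicates 1, 2 and 3, the hOSM arrays 11.27, 11.51 and 11.17, the mLIF arrays 11.44, 11.72 and 11.17, and the control arrays 11.42, 11.48 and 11.28. Every mOSM array lay above every LIFR ligand array and every control array. The difference between mOSM and LIFR ligands was 1.03 ± 0.14 (SE, 95% interval 0.76 to 1.31, adjusted p = 0.000101), a 2.05-fold higher level, and it was 1.16, 0.89 and 1.04 in the 3 matched cultures. Of the 27 ways to pick 1 array per culture as the mOSM array, the real one gave the most extreme difference (exact permutation test, two-sided p = 0.037, the smallest it allows). Klf2 passed against hOSM (1.10, adjusted p = 0.000576) and against mLIF (0.97, adjusted p = 0.00591). Against control, mOSM raised it by 1.02 (adjusted p = 4.56e-05), while LIFR ligands differed from control by -0.01, with an interval from -0.29 to 0.26. This holds for WT cultures only: in KO cultures at 1 h Klf2 was among the 141 genes that rose with LIFR ligands against control.

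Ppp1r15a, which encodes GADD34, the phosphatase subunit that restores translation after stress, was also higher without overlap. It read 11.81, 11.39 and 11.66 after mOSM, 10.20, 10.60 and 10.16 after hOSM, 10.77, 10.48 and 10.69 after mLIF, and 9.78, 10.00 and 9.94 in control. The order control, hOSM, mLIF, mOSM held for the group means, but the hOSM and mLIF arrays overlapped. The difference between mOSM and LIFR ligands was 1.14 ± 0.23 (95% interval 0.68 to 1.60, adjusted p = 0.0343), and exact p was 0.037. Against control Ppp1r15a rose by 1.72 with mOSM (adjusted p = 3.89e-05), and its difference of 0.58 with LIFR ligands did not pass (adjusted p = 0.346).

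Nfkbiz, the inducible nuclear IkappaB protein IkappaB-zeta, and Trib1, a pseudokinase that promotes the degradation of C/EBP proteins, rose with LIFR ligands and stood higher still after mOSM. Nfkbiz read 11.54, 11.79 and 11.04 after mOSM against 10.06, 10.65 and 9.58 after hOSM, 10.52, 11.37 and 9.67 after mLIF, and 8.87, 9.35 and 8.23 in control. The groups overlapped across cultures, since replicate 2 of mLIF exceeded replicate 3 of mOSM, but within each culture mOSM was the highest. Its difference from the LIFR ligands was 1.15 ± 0.23 (95% interval 0.69 to 1.61, adjusted p = 0.0343, exact p = 0.037). Against control Nfkbiz rose by 2.64 with mOSM and by 1.49 with LIFR ligands.

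Trib1 read 10.09, 9.90 and 9.51 after mOSM, 8.66, 9.08 and 7.996 after hOSM, 9.06, 10.07 and 8.18 after mLIF, and 7.09, 7.46 and 7.12 in control. In culture 2 the mLIF array was above the mOSM array. The difference was 0.99 ± 0.19 (95% interval 0.61 to 1.38, adjusted p = 0.0343), and the exact test gave p = 0.0741. On the 1 beadchip that held mOSM and mLIF arrays of culture 2, the difference was -0.17, whereas the beadchip with the mOSM array of culture 1 and the mLIF arrays of cultures 1 and 3 gave 1.47. The same within-beadchip values were 0.79 and 1.21 for Klf2, 0.91 and 1.08 for Ppp1r15a, and 0.42 and 1.45 for Nfkbiz. The second value of each gene is not matched by culture and so also holds a difference between cultures. For Trib1 the mLIF array of culture 3 read 8.18 against 9.06 in culture 1, and it was lower for the other genes too. The mOSM array of culture 3 had no WT LIFR ligand array of 1 h on its beadchip.

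Wfdc18, a gene of the whey acidic protein family, was the only gene that passed with a lower level after mOSM. It read 6.55, 5.72 and 7.13 after mOSM, 7.27, 6.98 and 8.19 after hOSM, 7.31, 7.17 and 7.64 after mLIF, and 6.80, 6.33 and 7.51 in control. Within each culture the mOSM array was the lowest of the 4. The difference from LIFR ligands was -0.96 ± 0.19 (95% interval -1.34 to -0.58, adjusted p = 0.0343, exact p = 0.037). Neither side passed against control, with -0.41 after mOSM (adjusted p = 0.623) and 0.55 after LIFR ligands (adjusted p = 0.178).

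The 5 calls rest on the culture term and differ in how firmly they stand. In the model without that term 0 of the 5 passed, with adjusted p = 1 for Klf2, Nfkbiz, Trib1 and Wfdc18 and 0.23 for Ppp1r15a. Klf2 passed under 20 of 22 alternative settings, all 9 that left out 1 array included. Nfkbiz, Ppp1r15a, Trib1 and Wfdc18 lost their call under 13, 13, 15 and 15 of the 22 settings, respectively. Of the 9 settings that left out 1 array, they lost it under 7, 8, 6 and 8, respectively. The direction was the same throughout. All of them lost the call with beadchip terms, where Klf2 kept it, and in the 9 compared arrays alone, where Klf2 lost it too.

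**Figure D2:**
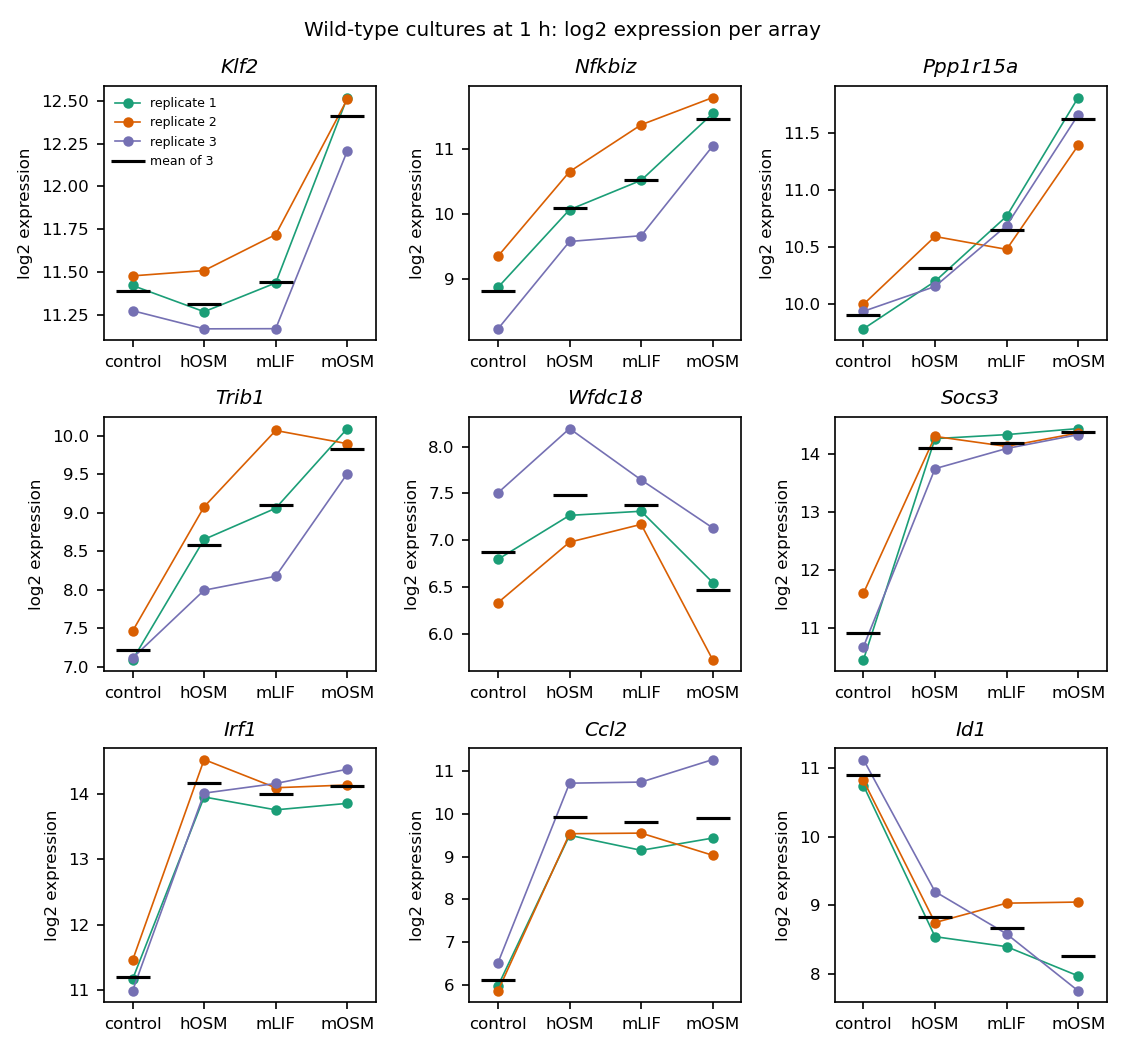
Log2 expression on each WT array at 1 h (vertical axis) by treatment (horizontal axis), with points of 1 culture joined by a line and a black bar at the mean of 3. Klf2 and Ppp1r15a are higher on all mOSM arrays than on any other array, Wfdc18 is lowest with mOSM within each culture, and all ligand arrays lie above the control arrays for Socs3, Irf1 and Ccl2 and below them for Id1.

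Promoter sequence is shown for 2 of the genes that passed and for Irf1, which was above control on all 9 ligand arrays, so that their upstream regions can be set side by side. RefSeq promoters on GRCm38.p6 were at hand for Klf2, Ppp1r15a, Wfdc18 and Irf1, 4 of the 6 genes looked up, but not for Nfkbiz and Trib1. The 250 bases before the start site are printed in the direction of transcription, and capitals mark the match to 1 motif named after the sequences, out of 6 searched on both strands. The motifs were TTCNNNGAA (the STAT core), TGACGTCA (the cAMP response element), TGANTCA (AP-1), GGGCGG (the GC box), the MEF2 motif and the serum response CArG motif.
Klf2, chr8:72318812-72319061, plus strand: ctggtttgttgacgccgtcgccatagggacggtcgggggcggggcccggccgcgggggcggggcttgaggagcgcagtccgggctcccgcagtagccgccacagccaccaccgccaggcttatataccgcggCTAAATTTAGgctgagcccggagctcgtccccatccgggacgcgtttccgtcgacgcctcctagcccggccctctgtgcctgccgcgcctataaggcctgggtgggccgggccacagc
Ppp1r15a, chr7:45526269-45526518, minus strand: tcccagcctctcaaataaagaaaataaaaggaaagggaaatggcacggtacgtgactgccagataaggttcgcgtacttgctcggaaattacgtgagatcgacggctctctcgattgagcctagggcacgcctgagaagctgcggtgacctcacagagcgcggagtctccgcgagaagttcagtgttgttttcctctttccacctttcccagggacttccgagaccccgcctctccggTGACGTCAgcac
Irf1, chr11:53769764-53770013, plus strand: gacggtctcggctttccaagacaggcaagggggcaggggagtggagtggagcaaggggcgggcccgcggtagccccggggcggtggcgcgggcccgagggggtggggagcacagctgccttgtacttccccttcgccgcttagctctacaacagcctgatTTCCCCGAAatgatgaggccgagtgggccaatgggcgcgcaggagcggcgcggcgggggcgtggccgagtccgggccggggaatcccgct
The Klf2 window held a MEF2 match, CTAAATTTAG, which starts 118 bases before the start site, and 0.508% of 32851 promoters held one. The Ppp1r15a window held the cAMP response element 12 bases before the start site, present in 1.55% of promoters. The Irf1 window, the first of 2 in RefSeq, held TTCCCCGAA 90 bases before the start site, and 7.02% of promoters held a TTCNNNGAA. The GC box, present in 32.7% of promoters, occurred in the windows of Klf2 and Irf1. The AP-1 and CArG motifs, present in 6.75% and 1.47% of promoters, had no match in these 3 windows or in that of Wfdc18, which held none of the 6 motifs. A match describes letters in the window and was not tested as a binding site.

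Most genes of a list of response genes, drawn up for this cytokine family, differed from control after mOSM and after LIFR ligands, and none passed between them. Of 23 such genes tested, listed with earlier results of these data known, 0 passed between mOSM and LIFR ligands, against 0.0466% of all genes. Their median difference was 0.06. For 20 of the 23 the 95% interval lay within -1 and 1, a lower share than the 98.3% of all genes. Against control, 14 of the 23 were higher and 2 lower after mOSM, and 13 were higher and 1 lower after LIFR ligands. The median differences were 1.56 and 1.23, where 1.64% and 2.01% of all genes passed. Because the list was made with earlier results known, its counts against control describe these genes and cannot be set evenly against those shares. A p-value that misses the threshold does not show equal levels, so the intervals are given with the genes below.

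Socs3, the feedback inhibitor that binds gp130, read 14.44, 14.36 and 14.33 after mOSM, 14.26, 14.30 and 13.75 after hOSM, 14.33, 14.13 and 14.09 after mLIF, and 10.46, 11.60 and 10.68 in control. All 9 ligand arrays lay above the 3 control arrays, and replicate 1 of mLIF was level with replicate 3 of mOSM at 14.33. Socs3 rose by 3.46 with mOSM and by 3.23 with LIFR ligands, and mOSM and LIFR ligands differed by 0.23 (95% interval -0.32 to 0.78). Socs1 and Cish, feedback inhibitors of the same family, rose by 2.85 and 2.88 with mOSM and by 3.07 and 2.99 with LIFR ligands, with differences of -0.22 (-0.71 to 0.27) and -0.10 (-0.70 to 0.49). Socs1 was above background on 1 of 3 control arrays, so its rises depend in part on signal at background.

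Irf1, an interferon regulatory factor and a direct STAT target, read 13.86, 14.14 and 14.38 after mOSM, 13.96, 14.53 and 14.02 after hOSM, 13.76, 14.10 and 14.16 after mLIF, and 11.16, 11.45 and 10.98 in control. The 3 ligand groups overlapped fully and lay above control. The difference between mOSM and LIFR ligands was 0.04 ± 0.21 (-0.39 to 0.46), after rises of 2.93 and 2.89 against control. Socs3 and Irf1 were bright here, at means of 14.22 and 14.10, where the highest value on the 9 arrays was 14.8 and 47 genes had a mean over 14. Whether bright signals narrowed differences near the top of the scale was not tested.

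The chemokines Ccl2 and Ccl7, which attract monocytes, rose by 3.80 and 3.53 with mOSM and by 3.75 and 3.47 with LIFR ligands. Ccl2 read 9.43, 9.03 and 11.27 after mOSM, 9.50, 9.54 and 10.72 after hOSM, 9.15, 9.55 and 10.74 after mLIF, and 5.97, 5.86 and 6.51 in control. Culture 3 was the highest in every group, and the ligand groups overlapped. Ccl2 differed between mOSM and LIFR ligands by 0.05 ± 0.44 (-0.86 to 0.95) and Ccl7 by 0.06 ± 0.40 (-0.74 to 0.87). Without the mOSM array of culture 3 the Ccl2 difference was -0.46, still with no call.

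Il6, itself a cytokine of this family, rose by 2.64 and 2.42 with mOSM and LIFR ligands, and Tnfsf11, the gene for the osteoclast differentiation signal RANKL, by 1.56 and 1.98. Their differences were 0.22 (-0.41 to 0.86) and -0.42 (-0.93 to 0.10). Bcl3, an atypical IkappaB protein and STAT3 target, rose by 1.87 and 2.23, with a difference of -0.36 (-0.95 to 0.23). Il6 and Bcl3 were each above background on 1 of 3 control arrays, so their rises depend in part on signal at background. Id1, an inhibitor of DNA binding induced by BMP signals, changed by -2.63 with mOSM and by -2.14 with LIFR ligands. Its difference of -0.49 (-0.90 to -0.08) did not pass (adjusted p = 1), and its arrays overlapped. Cebpd, a C/EBP factor, fell by 0.86 with mOSM (adjusted p = 0.00111), and its difference of -0.33 with LIFR ligands did not pass (adjusted p = 0.483). The difference between them was -0.53 (-0.82 to -0.24, adjusted p = 0.489).

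Pde4b, a cAMP phosphodiesterase, had the widest difference among the 23, with no call. It read 11.43, 11.23 and 10.31 after mOSM, 10.22, 10.64 and 8.24 after hOSM, 10.24, 11.35 and 8.88 after mLIF, and 6.26, 6.97 and 5.95 in control. The ligand groups overlapped, and in culture 2 the mLIF array was above the mOSM array. The difference was 1.07 ± 0.41 (95% interval 0.23 to 1.90, adjusted p = 1), after rises of 4.60 with mOSM and 3.53 with LIFR ligands. Junb and Fos, subunits of AP-1, had differences of 0.90 ± 0.35 and 0.84 ± 0.48 that did not pass either, although all 3 mOSM arrays of each lay above all 6 LIFR ligand arrays. Their 95% intervals were 0.20 to 1.61 and -0.14 to 1.81. Fos read 13.96, 14.05 and 13.93 after mOSM, against 11.96 to 13.91 after LIFR ligands.

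No difference between the ligands passed for the receptor chains. Osmr differed by 0.15 (-0.28 to 0.59), Lifr by 0.07 (-0.32 to 0.47) and Il6st by -0.26 (-0.72 to 0.20), and 0 of the 3 passed against control with either ligand group. Stat3 differed by -0.34 (-0.66 to -0.02, adjusted p = 1). Sp7, a transcription factor of osteoblasts, differed by 0.22 (-0.26 to 0.71), Myc by 0.04 (-0.66 to 0.73), Egr1 by 0.15 (-0.39 to 0.69), Egr2 by 0.31 (-0.15 to 0.78) and Cebpb by 0.10 (-0.16 to 0.35).

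**Figure D3:**
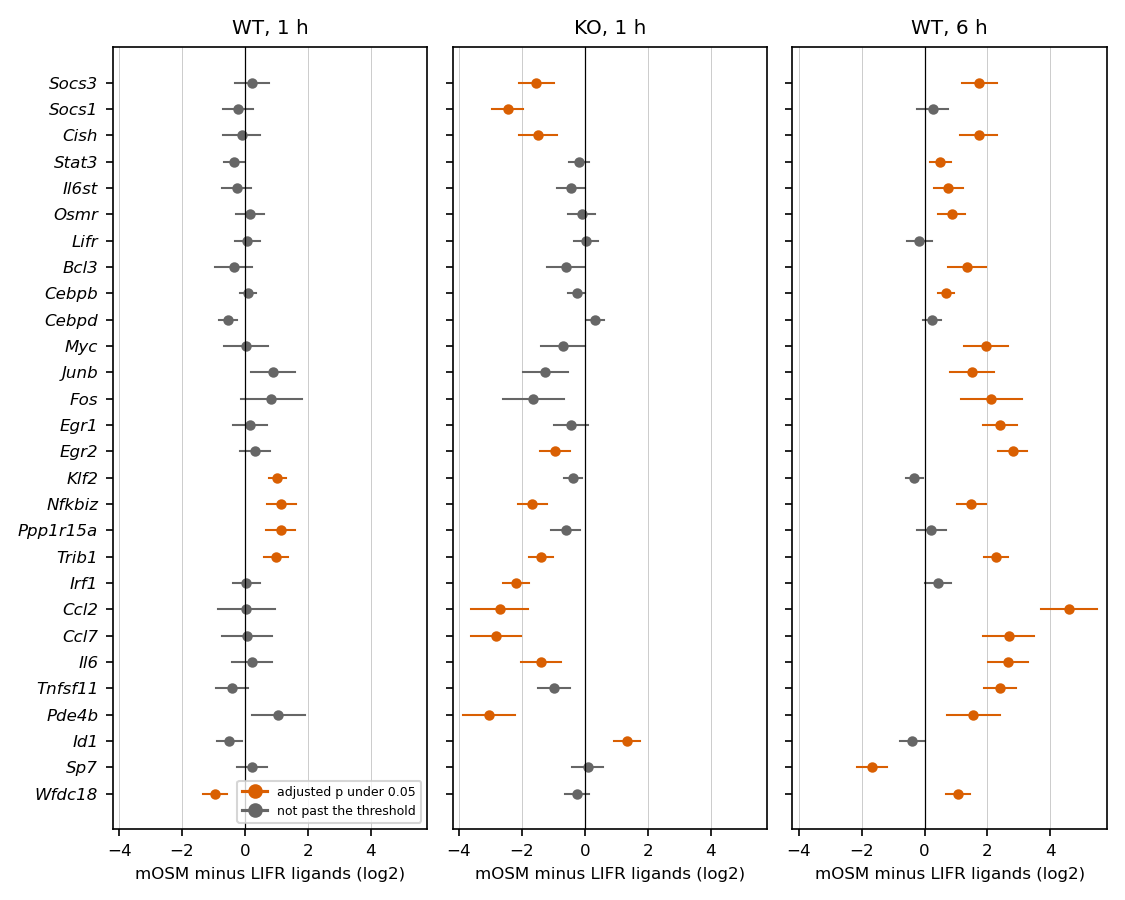
Difference between mOSM and LIFR ligands (log2, horizontal axis) with its 95% interval for the 23 response genes and the 5 genes that passed at 1 h (vertical axis), in WT cultures at 1 h, KO cultures at 1 h and WT cultures at 6 h; orange marks an adjusted p under 0.05. Most points lie near 0 in the first panel, to the left of 0 in the second and to the right in the third.

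Gene lists held 2 of the genes that passed, Klf2 and Nfkbiz. Between mOSM and LIFR ligands the list counts stand against 0.0466% of all genes, and against control they stand against 1.64% for mOSM and 2.01% for LIFR ligands. Among 25 AP-1, EGR and other immediate early genes, 1 passed (Klf2) and 20 had a difference above 0, with a median of 0.24 against 0.01 over all genes. At an unadjusted p under 0.05 there were 6 of the 25, against 4.02% of all genes. The extremes of this list, named after their values were seen, were Ccn2 at -0.23 and Atf3, a stress-induced transcription factor, at 1.22 (adjusted p = 0.559). Atf3 read 9.51, 8.82 and 10.45 after mOSM, 7.60, 7.88 and 9.12 after hOSM and 8.42, 7.96 and 9.22 after mLIF, so its groups overlapped while mOSM was highest in each culture. Against control 7 of the 25 rose with mOSM, and 3 rose and 2 fell with LIFR ligands. Among 12 genes of mRNA decay and of the BTG and GADD45 families, which limit growth, 0 passed and 11 had a difference above 0, with a median of 0.29 and 3 at an unadjusted p under 0.05. Btg2, the highest of them at 1.47 (adjusted p = 0.687), read 8.42, 8.90 and 7.89 after mOSM, 5.01, 6.69 and 5.97 after hOSM and 7.71, 8.70 and 7.51 after mLIF. Its hOSM arrays were all below its mLIF arrays, and it passed against hOSM (2.51, adjusted p = 0.0296) but not against mLIF (0.43, adjusted p = 1).

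In the list of NF-kappaB subunits, inhibitors and targets, 1 of 14 passed (Nfkbiz), with a median difference of 0.10. None of 13 STAT feedback inhibitors (median -0.01), 8 JAK and STAT genes (-0.06), 19 STAT3 targets (0.03) or 11 receptors and ligands of the gp130 family (0.07) passed. Of the STAT3 targets 7 rose and 1 fell with mOSM against control, and 10 rose with LIFR ligands. None of 12 ERK feedback genes passed (median 0.10), where Dusp1, a MAP kinase phosphatase, was highest at 0.96 (adjusted p = 1) without overlap of the arrays. Among 16 chemokines 0 passed (median 0.08) and Cxcl10, the highest at 1.34, overlapped. Of these, 8 rose with mOSM and 8 with LIFR ligands against control. Among 25 interferon response genes 0 passed (median 0.12), with 9 rising with mOSM and 8 with LIFR ligands. Osteoclast-regulating factors (8 tested, median -0.06), matrix proteases and hyaluronan genes (17, 0.08), acute phase genes (10, -0.002), cAMP and prostaglandin genes (10, -0.04), BMP and TGF-beta genes (16, -0.10), Wnt genes (12, 0.01), Notch genes (7, -0.05), hypoxia genes (7, 0.07) and heat shock genes (14, 0.05) had 0 genes passing each. So did the osteoblast genes (10 tested, median -0.10) and the osteocyte genes (7, -0.06). Markers of macrophages and osteoclasts (7, -0.02), adipocytes (7, 0.06), endothelium (2, 0.06), chondrocytes (6, 0.02) and muscle (2, -0.31) also had 0 genes passing. These cultures were measured in bulk, so fewer cells of a type and less RNA per cell cannot be told apart.

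The genes that LIFR ligands change in KO cultures at 1 h gave a set whose differences came from arrays outside the 9. The p-values that chose this set used a residual variance fitted over all arrays, the 9 included. The choice was therefore not fully independent of the WT values given here. In KO cultures 141 genes rose (1.31%) and 27 fell (0.251%) with LIFR ligands against control. In WT cultures 114 of the 141 rose with LIFR ligands (2.01% of all genes passed) and 112 rose with mOSM (1.64%), with median differences from the same 3 control arrays of 1.36 and 1.56. The difference between mOSM and LIFR ligands in WT had a median of 0.11 over these 141 genes. It ran from -0.61 to 1.34 and passed for 4 (Klf2, Nfkbiz, Ppp1r15a and Trib1, all higher with mOSM), against 0.0466% of all genes. It lay within -1 and 1 with its interval for 111 of the 141, a lower share than the 98.3% of all genes. Of the 27 that fell in KO, 14 fell in WT with LIFR ligands and 13 with mOSM, and 0 passed between them (median -0.03). In KO cultures the difference of the 141 between mOSM and control had a median of 0.34, which uses the control arrays that chose the genes and is a description only. There 1 gene in all passed against control (0.00931%), Socs3 at 2.52 (adjusted p = 2.63e-05). Without the KO culture 3, 99 genes rose with LIFR ligands in KO, 88 of them among the 141. In WT 90 of the 99 then rose with LIFR ligands and 90 with mOSM, and the median difference between them was 0.10.

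**Figure D4:**
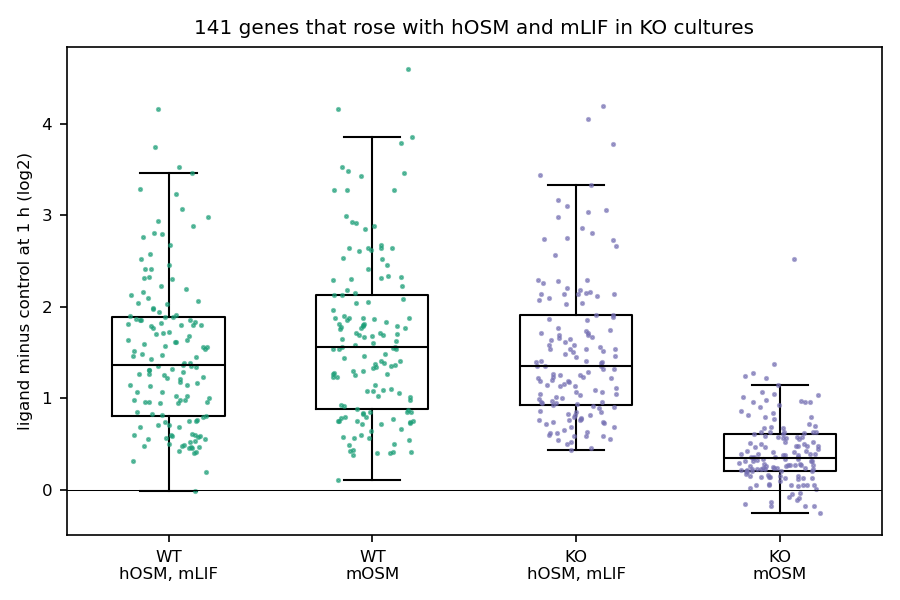
Change against control at 1 h (log2, vertical axis) of the 141 genes that rose with hOSM and mLIF in KO cultures, 1 point per gene, for 2 ligand groups in WT and in KO cultures; boxes show the median and quartiles, whiskers the points within 1.5 box lengths. Medians were 1.36 and 1.56 in WT with LIFR ligands and mOSM, and 1.35 and 0.34 in KO, where the LIFR ligand column chose the genes.

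The same contrast in KO cultures, which lack functional Osmr, showed lower responses to mOSM. There 93 genes passed (0.866%), with 19 higher and 74 lower after mOSM than after LIFR ligands. Scaling the arrays to their medians gave 110, 6 higher and 104 lower, and moved the median difference of all genes in KO from 0.02 to -0.10. Without the KO culture 3 the count was 93, with 69 genes shared. Of the 23 response genes 9 were lower and 1 was higher. Irf1 differed by -2.18 (adjusted p = 3.43e-08), with 11.54, 11.80 and 12.11 after mOSM against 13.55 to 14.41 after LIFR ligands. Socs3 differed by -1.54, Ccl2 by -2.71, Pde4b by -3.05 and Id1 by 1.33. Nfkbiz and Trib1 were lower by -1.67 and -1.40, while the differences of Klf2 (-0.38, adjusted p = 0.338), Ppp1r15a (-0.61, adjusted p = 0.375) and Wfdc18 (-0.24, adjusted p = 0.821) did not pass.

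The difference between genotypes was tested directly, as the WT difference minus the KO difference. It passed for 63 genes (0.587%), 52 positive and 11 negative, and for 74 without the KO culture 3, of which 53 were shared. The 6 largest by the fitted difference, a rank that set which genes are named here, were Pde4b (4.12 ± 0.58), Cxcl10 (3.72 ± 0.70), Mx2 (3.70 ± 0.61), Rnf213 (3.68 ± 0.30), Cxcl1 (3.07 ± 0.50) and Ccl7 (2.89 ± 0.56). Mx2 and Rnf213 are interferon-inducible genes, and Cxcl10 and Cxcl1 are chemokines. Mx2, Rnf213 and Cxcl10 were above background on 0 of 3 KO mOSM arrays, so their KO levels were at least 7.43-fold, 3.22-fold and 2.31-fold lower after mOSM than after LIFR ligands. Their differences between genotypes are therefore lower bounds, of at least 3.37, 2.63 and 2.54, and the fitted values above depend on signal at background. In WT, Rnf213 read 8.78, 8.06 and 6.89 after mOSM and 6.64 to 7.77 after LIFR ligands, a difference of 0.95 ± 0.21 that did not pass (adjusted p = 0.112) and whose arrays overlapped. Without the KO culture 3, the difference of Cxcl10 in KO was -1.52 and did not pass (adjusted p = 0.249), and that of Junb was -1.48 and passed (adjusted p = 0.000832). Cxcl10 (1.34), Cxcl1 (0.91) and Mx2 (0.48) did not pass in WT either. Klf2 (1.41, adjusted p = 2.49e-05), Ppp1r15a (1.75, adjusted p = 0.0018), Nfkbiz (2.82, adjusted p = 1.41e-06) and Trib1 (2.39, adjusted p = 1.4e-06) passed for the difference between genotypes, and Wfdc18 (-0.72, adjusted p = 0.513) did not. The WT difference that chose these genes is part of this test.

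At 6 h mOSM and LIFR ligands had come apart in WT cultures. Then 4085 genes passed (38%), 1555 higher and 2530 lower after mOSM, and 732 genes (6.82%) differed by more than 1. Of the 23 response genes 17 were higher and 1, Sp7 at -1.67, was lower. Ccl2 read 10.90, 11.30 and 11.17 after mOSM against 5.96 to 7.12 after LIFR ligands at 6 h, a difference of 4.60 with no overlap. Tnfsf11 differed by 2.40, Il6 by 2.66, Egr2 by 2.80 and Socs3 by 1.74. The change of the difference from 1 h to 6 h passed for 2794 genes (26%), with 1028 positive and 1766 negative. The 6 ranked first by that change were Ccl2 (4.55), G0s2 (-3.54), Gm4841 (3.52), Mcoln2 (3.32), Il4ra (3.29) and Sema7a (3.11), and at 1 h 0 of these 6 passed, with differences from -0.61 to 0.22. Of these, Il4ra encodes the receptor chain for interleukins 4 and 13, and G0s2 an inhibitor of fat breakdown.

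The 5 genes that passed at 1 h went separate ways by 6 h. The 1 h difference that chose them is part of each change given here, so some of a change can follow from the choice. Klf2 differed by -0.33 at 6 h (adjusted p = 0.0529), a change of -1.36 ± 0.19 (adjusted p = 2.12e-06), and its arrays read 9.42, 9.05 and 9.32 after mOSM against 9.41 to 9.77 after LIFR ligands, with overlap. Ppp1r15a differed by 0.21 at 6 h (adjusted p = 0.486), a change of -0.93 ± 0.32 (adjusted p = 0.0296). Nfkbiz remained higher with mOSM at 1.48 (adjusted p = 3.09e-06), with a change of 0.33 that did not pass (adjusted p = 0.497). Trib1 was higher by 2.27, a change of 1.27 ± 0.27 (adjusted p = 0.00049). Wfdc18 turned from -0.96 to 1.05 (adjusted p = 2.68e-05), a change of 2.01 ± 0.26, and read 8.85, 8.08 and 9.31 after mOSM against 7.30 to 8.03 after LIFR ligands, with no overlap.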

How the data were processed

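RNA of 48 samples, from 3 cultures per genotype, was hybridised to 1-colour Illumina bead arrays, 3 per group. The authors deposited a table of probe intensity with a detection p-value per probe and array, and a table of normalized log2 values. Per the submitters' processing notes, BeadStudio and limma were used. An own normexp and quantile normalization of the deposited intensity (limma's neqc, offset 16) stayed within 0.0338 of the authors' log2 values, and these deposited values were used as they stand. Normalization sets each array to the same distribution, so a shift shared by most genes would not be seen. Of 45281 probes, 34885 had 1 gene symbol in the platform annotation, 18 had several and 10378 had none. Probes with a detection p-value under 0.01 on at least 3 arrays were kept (19472), and each of the 10739 genes was represented by its brightest probe, which was a choice for 4119 genes with more than 1.

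Differences were fitted with limma 3.58.1 in R 4.3.3 over all 48 arrays, with 16 group means and a term for culture (genotype and replicate number), leaving 28 residual degrees of freedom. The culture term is in the design because the arrays are matched by replicate number, which the study's design text ties to occasions of thawing and treatment. The labels give 2 thaw days, 1 for replicates 1 and 2 and 1 for replicate 3. Deviations from group means correlated at 0.657 on average for the 9 same-culture pairs among the 9 arrays (lowest 0.452) and at -0.385 for pairs of different number, and 9 of 9 arrays were closest to their own culture. Deviations within a group cancel out, so the negative value follows from the calculation and is no separate evidence for the culture term. P-values were adjusted over 10739 genes by the Benjamini-Hochberg method, at 0.05. A level or fold against a group with no array above background is given as a lower bound, taken from the lowest detected signal. The number of arrays limits the precision. The calculation was tested on simulated data, where 8 of 168 calls were genes left unchanged. The simulated noise was normal and independent between arrays, and the same model was then fitted. No beadchip effect was put in, so the simulation cannot tell how the calls hold under one.

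Genes are named by rule: the genes that passed at 1 h with 3 matched differences of 1 sign (up to 12 in each direction, and up to 4 for each list), 23 response genes, and the 6 genes ranked first by the change of the difference between genotypes and between times. The comparison, the genes and the 26 gene lists were chosen with earlier results of these data known. Alternatives were the model without culture, beadchip terms, other scaling, filters and probe rules, and leaving out each array.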

Additional observations from a re-analysis of the deposited data

Results flagged for a closer look

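The difference between mOSM and LIFR ligands at 1 h was not the same in WT and KO cultures for 17 of the 37 named genes, by a test of the WT difference minus the KO difference (limma, adjusted p under 0.05), where 0.587% of all genes passed. Of the 37, 6 were named for ranking first in this difference, and 11 of the other 31 passed. Those 31 include the 5 genes named for passing in WT at 1 h, and the WT difference that chose them is part of this test. Klf2, Nfkbiz, Ppp1r15a and Trib1 are such genes among the 11, so the count cannot be set evenly against the share of all genes. For 15 it was positive, which means that mOSM stood higher against LIFR ligands in WT than in KO. The values, on the log2 scale, were 4.12 for Pde4b, 3.72 for Cxcl10, 3.70 for Mx2, 3.68 for Rnf213, 3.07 for Cxcl1, 2.89 for Ccl7, 2.82 for Nfkbiz, 2.75 for Ccl2, 2.39 for Trib1, 2.23 for Socs1, 2.22 for Irf1, 2.15 for Junb, 1.77 for Socs3, 1.75 for Ppp1r15a and 1.41 for Klf2. Mx2, Rnf213 and Cxcl10 were above background on 0 of 3 KO mOSM arrays, so their fitted values depend on background and the differences are bounds of at least 3.37, 2.63 and 2.54. The difference was negative for Id1 at -1.83 and for Cebpd at -0.87. Without the KO culture 3, 16 of the 17 kept their call and Cebpd lost it, while Fos (2.26), Cish (1.58), Egr2 (1.16) and Gm4841 (2.21) gained one.

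The difference also changed between 1 h and 6 h in WT cultures for 24 of the 37 named genes, by a test of the 6 h difference minus the 1 h difference, where 26% of all genes passed. Of the 37, 6 were named for ranking first in this change, and 18 of the other 31 passed. Those 31 include the 5 genes named for passing at 1 h, and the 1 h difference that chose them is part of this change. Among 20 with a positive change were the chemokines Ccl2 (4.55) and Ccl7 (2.61), the cytokines Tnfsf11 (2.82) and Il6 (2.44), the feedback inhibitors Cish (1.83) and Socs3 (1.51), and the transcription factors Egr2 (2.49), Egr1 (2.24), Myc (1.92), Stat3 (0.84), Cebpd (0.76) and Cebpb (0.59). The others were Gm4841 (3.52), Mcoln2 (3.32), Il4ra (3.29), Sema7a (3.11), Wfdc18 (2.01), Bcl3 (1.70), Trib1 (1.27) and the receptor chain Il6st (1.02). The 4 with a negative change were G0s2 (-3.54), Sp7 (-1.89), Klf2 (-1.36) and Ppp1r15a (-0.93). Groups of 3 arrays were too small to test for single arrays that stand apart.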

How the results depend on the processing

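The count of 5 genes between mOSM and LIFR ligands depended on the processing. It was 0 with no replicate block, 0 in the 9 arrays alone, 2 with beadchip as a further term, 2 with culture as a random term, 1 with no filter, 1 with every probe singly, 7 with no background correction, and, as alternatives chosen after seeing the data, 7 in the 12 WT arrays of 1 h alone and 8 without the KO culture 3. Leaving out 1 array gave 1 to 7. With no replicate block the other counts were 0 against hOSM, 0 against mLIF, 80 for mOSM and 86 for LIFR ligands against control, 33 in KO, 19 between genotypes, 2272 at 6 h and 1079 between times. With beadchip terms they were 0 against hOSM and 99 for mOSM against control, and with median scaling 0 against mLIF and 1527 between times. Median scaling gave 5 higher and 1 lower against hOSM, and 162 higher and 16 lower for LIFR ligands against control. Leaving out 1 array gave 1 to 7 against hOSM, 0 to 1 against mLIF, 0 to 0 between hOSM and mLIF, 113 to 215 for mOSM and 132 to 210 for LIFR ligands against control, 55 to 99 in KO, 42 to 74 between genotypes, 3163 to 4092 at 6 h and 2191 to 2869 between times. The lowest values came without mOSM replicate 3 (113), control replicate 3 (132) and KO mOSM replicate 1 (55). Of the settings tried on named genes, 744 kept the call and direction, 58 lost the call, 4 gained it, 8 moved and 0 reversed a called direction. Rnf213 gained the call in 3 of the 4, at 1.26 with beadchip terms, 1.08 without mLIF replicate 2 and 1.37 without mOSM replicate 3.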
